A study of Mus musculus with 48 samples.

Results

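The livers compared were those sampled 24 h after the first administration of LX-A2003 and those sampled 24 h after LX-A1656, both modified gapmer antisense oligonucleotides directed against Scarb1. These groups were taken from the labels and hold 8 of the 48 mouse liver libraries in the series, 4 libraries a group, and all genes in the count table were compared. The other libraries are from livers given LX-A2003 or LX-A1656 and sampled at 72 h and 168 h, or from livers given another gapmer against Scarb1, LX-A3928, or PBS as the vehicle. PBS livers at 24 h serve as the background level of each gene, and the later libraries of the same pair of oligonucleotides as other samples of the same contrast. The labels give no dose, oligonucleotide sequence, chemistry, sex, age, strain or hour of tissue collection, so LX-A2003 and LX-A1656 are matched here by time and not shown to be matched by dose.

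A gapmer is a short strand with a DNA core and chemically modified ends. Once paired with a transcript in the cell, its core lets RNase H1 cut that transcript, and the same machinery can act on pre-mRNA in the nucleus, introns included. The liver takes up such strands through scavenger receptors and other surface proteins, in sinusoidal endothelial cells and Kupffer cells as well as in hepatocytes. Scarb1 encodes the scavenger receptor class B that takes up cholesterol from HDL.

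Total counts were 10274766 to 11828165 in LX-A2003 libraries, 8140065 to 10183661 in LX-A1656 libraries and 8381297 to 11472905 in PBS libraries at 24 h. Each LX-A2003 library was thus deeper than each LX-A1656 library. Genes with at least 1 read numbered 14641 to 14972 with LX-A2003 and 14057 to 14561 with LX-A1656. When all counts were thinned to the smallest of the 8 totals, an alternative added after the depths were seen, 31 genes passed the test in place of 36. Each gene is read on a designed amplicon, so levels are compared between samples and not between genes. Levels are CPM, read counts scaled to a common library size with TMM factors, and fold changes are log2 values of LX-A2003 over LX-A1656 ± SE with n = 4 libraries each. Nothing in the labels ties replicates to separate animals, so each p-value reflects the spread among these samples, and that spread may be technical.

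Of 12672 genes tested, 36 differed between LX-A2003 and LX-A1656 livers at 24 h (0.284% of those tested), 21 higher with LX-A2003 (0.166%) and 15 lower (0.118%). A gene is called at an adjusted p under 0.05 (edgeR quasi-likelihood test, Benjamini-Hochberg adjustment across the 12672 genes). The higher group was led in size by Socs2, a feedback inhibitor of growth hormone signalling, and in strength of evidence by the endothelial receptor gene Kdr. The lower group held the glucocorticoid-induced amino acid enzyme Tat, the transcriptional repressor Bcl6 and the heat shock genes Hspa1b and Hsph1. Called log2 fold changes ranged from 0.62 to 4.62 among higher genes and down to -2.16 among lower genes, and 26 of the 36 reached a log2 fold change of 1 in either direction. An unadjusted p under 0.05 was reached by 1122 genes (8.85%). The 4 libraries of each group did not overlap for 32 of the 36 called genes, against 1035 of all genes tested (8.17%, with LX-A2003 above for 4.81% and below for 3.36%). The calls rest on these same 8 libraries, so such separation largely follows from them. The number called depended on single libraries: it was 14 without LX-A2003 replicate 1, 11 without LX-A2003 replicate 2, and 11 without either LX-A1656 replicate 1 or LX-A1656 replicate 2. Without any other single library it was 26 to 39. Against PBS at the same time, 265 genes differed in LX-A2003 livers (2.09%; 0.939% higher and 1.15% lower) and 363 in LX-A1656 livers (2.86%; 0.986% higher and 1.88% lower). Those 2 comparisons share their PBS samples.

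**Figure D1:**
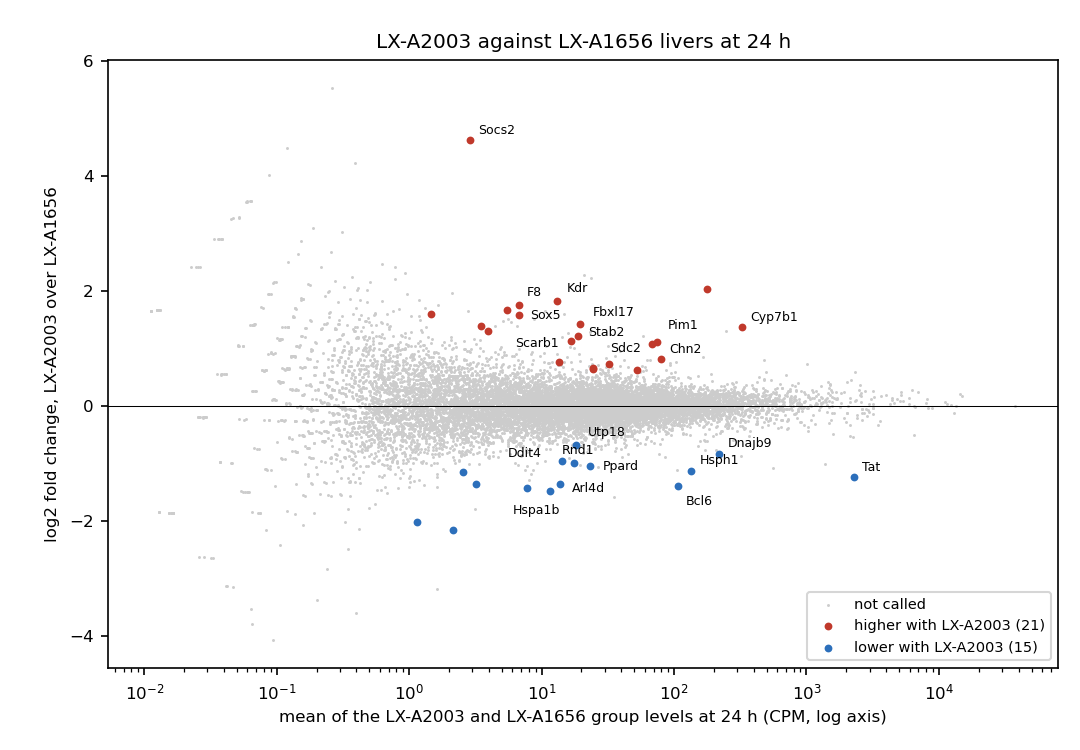
Log2 fold change of LX-A2003 over LX-A1656 at 24 h against the mean of the group levels (CPM, log axis), 1 point per gene tested. The 21 genes called higher (red) and the 15 called lower (blue) stand out from a cloud of 12672 genes centred near 0. Names mark the called genes chosen by the naming rule.

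The targeted gene was reduced in both groups, and less so with LX-A2003. Scarb1 (chr5:125277087-125341094, minus strand, GRCm38) had 29.0, 29.9, 19.6 and 13.6 CPM in LX-A2003 livers, 11.8, 9.53, 9.95 and 10.9 CPM in LX-A1656 livers, and 281, 236, 291 and 278 CPM in PBS livers. All LX-A2003 libraries lay above all LX-A1656 libraries, and both groups lay far below PBS. The mean level was 8.48% of the PBS mean with LX-A2003 and 3.89% with LX-A1656. The log2 fold change between the oligonucleotides was 1.12 ± 0.229 (adjusted p = 0.0103, edgeR). Against PBS it was -3.56 ± 0.232 for LX-A2003 and -4.68 ± 0.248 for LX-A1656. LX-A2003 replicates 1 and 2 were higher than replicates 3 and 4, and the call was lost without LX-A2003 replicate 1 (adjusted p = 0.0928), without LX-A2003 replicate 2 (0.105) or without LX-A1656 replicate 2 (0.0647). At the later times the pair did not pass the test: Scarb1 averaged 5.59 ± 1.45 CPM with LX-A2003 and 4.42 ± 1.23 CPM with LX-A1656 at 72 h (SD), a log2 fold change of 0.32 ± 0.25 (adjusted p = 0.346). At 168 h the means were 12.5 ± 1.91 CPM with LX-A2003 and 16.3 ± 3.75 CPM with LX-A1656, a log2 fold change of -0.38 ± 0.22 (adjusted p = 0.185). The difference of the pair between 72 h and 24 h, -0.80 ± 0.341, also missed the threshold (adjusted p = 0.0941), and passed it with library totals alone (-1.02, adjusted p = 0.0288). Where the Scarb1 amplicon lies relative to the sites that the gapmers pair with was not analysed here.

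**Figure D2:**
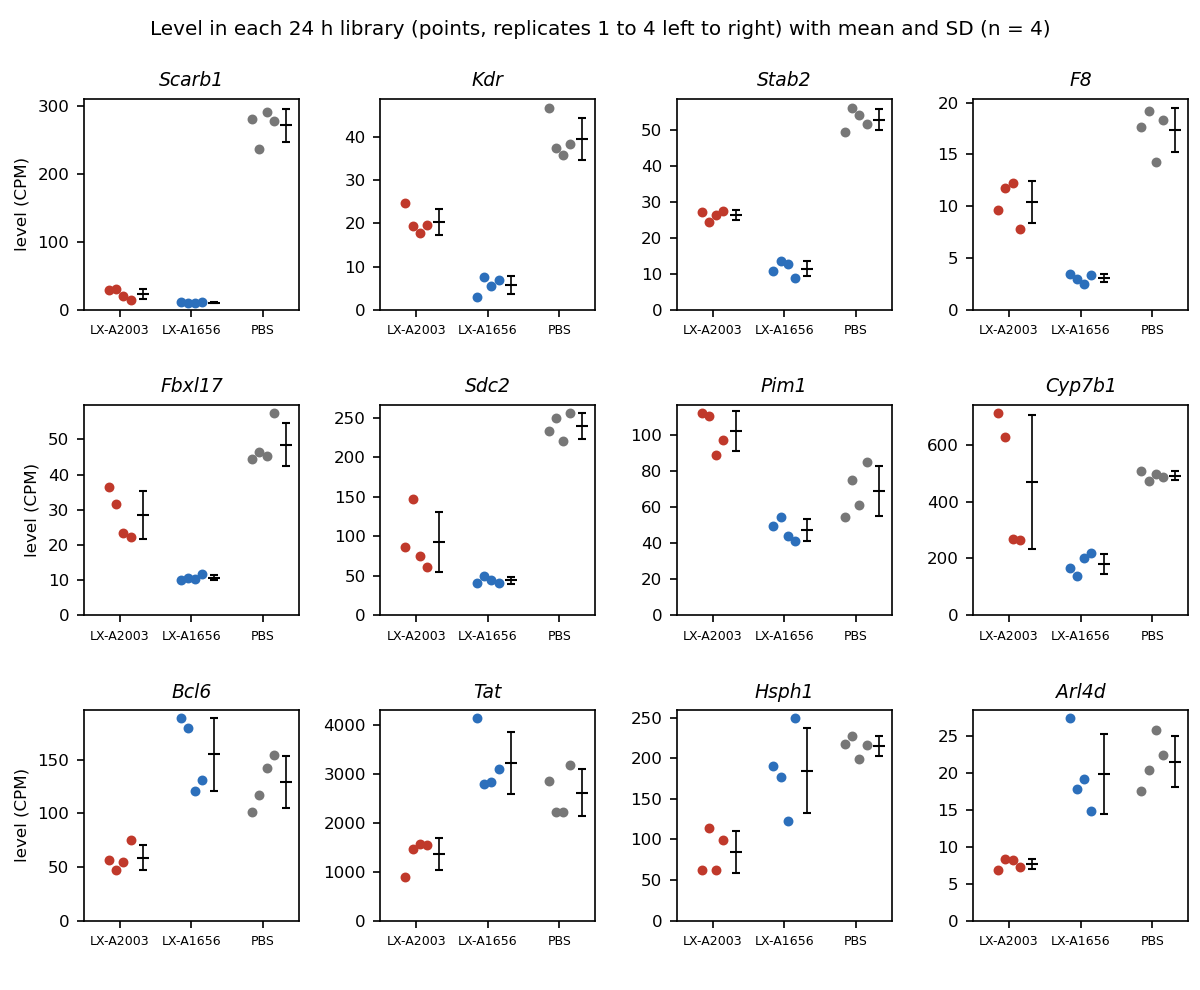
Level (CPM, linear axes from 0) of 12 named genes in each 24 h library, with the mean and SD of 4 beside each group. LX-A2003 libraries lie above LX-A1656 libraries for the upper 8 genes and below them for Bcl6, Tat, Hsph1 and Arl4d.

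Kdr and Stab2, markers of the liver sinusoidal endothelium, were less reduced with LX-A2003 than with LX-A1656, as was F8. Kdr, which encodes VEGF receptor 2, had 24.7, 19.3, 17.7 and 19.6 CPM in LX-A2003 livers, 2.96, 7.57, 5.44 and 6.86 CPM in LX-A1656 livers, and 46.6, 37.5, 35.8 and 38.3 CPM in PBS livers. The 3 groups did not overlap, with LX-A2003 between the others. The log2 fold change of 1.82 ± 0.202 had the smallest adjusted p of the comparison (1.48e-07, edgeR) and kept its call in all 16 alternative fits. Stab2, a scavenger receptor of sinusoidal endothelial cells that binds hyaluronan and oligonucleotides, had 27.1, 24.4, 26.2 and 27.5 CPM with LX-A2003, 10.7, 13.4, 12.7 and 8.73 CPM with LX-A1656, and 49.3, 56.1, 54.0 and 51.6 CPM with PBS. Again the 3 groups were fully separate, and the log2 fold change was 1.21 ± 0.201 (adjusted p = 0.000736), called in all 16 alternatives. F8, the clotting factor VIII gene, which endothelial cells express, had 9.66, 11.8, 12.2 and 7.83 CPM with LX-A2003, 3.48, 2.93, 2.52 and 3.33 CPM with LX-A1656, and 17.6, 19.2, 14.3 and 18.3 CPM with PBS. Its log2 fold change of 1.75 ± 0.381 (adjusted p = 0.0215) lost its call in 6 of the 8 fits that left out 1 library (all but those without LX-A2003 replicate 4 or LX-A1656 replicate 4), where the log2 fold change stayed between 1.67 and 1.87 and the adjusted p reached 0.0893. With no filter on low counts it was 0.0516.

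Of the 20 sinusoidal endothelial markers tested, 2 were called higher (Kdr and Stab2) and 0 lower, against 0.166% and 0.118% of all genes. The median log2 fold change over the markers was 0.23, against 0.0015 over all genes, and 17 of 20 were positive. Libraries did not overlap for 7 of the 20, all 7 with LX-A2003 above, which held for 4.81% of all genes tested. Among the 5 of these that did not pass the test, the lectin gene Clec4g averaged 105 ± 7.91 CPM with LX-A2003 and 68.8 ± 3.57 CPM with LX-A1656 (log2 fold change 0.61, adjusted p = 0.266). Oit3 averaged 44.6 ± 4.50 CPM with LX-A2003 and 31.3 ± 3.14 CPM with LX-A1656 (0.51, adjusted p = 0.115). Stab1, the paralog of Stab2, averaged 61.4 ± 5.39 CPM with LX-A2003 and 42.7 ± 5.81 CPM with LX-A1656 (0.52, adjusted p = 0.209). On the 16 libraries of 24 h alone, an alternative added after the data were seen, these 3 passed (adjusted p = 0.000681 for Clec4g, 0.00883 for Oit3 and 0.0138 for Stab1, edgeR). They also passed in the planned fit on the 8 libraries alone (0.00391, 0.0348 and 0.0307 in that order, edgeR). With DESeq2 they did not (0.215, 0.0669 and 0.141). The pan-endothelial genes Pecam1 and Cdh5 had log2 fold changes of 0.14 and 0.11 and did not pass. The summed level of the markers was 648 to 688 CPM with LX-A2003, 510 to 543 CPM with LX-A1656 and 714 to 755 CPM with PBS. In bulk tissue, fewer cells of a type and less RNA per cell cannot be told apart. On the list of oligonucleotide uptake, RNase H and paraspeckle genes, Stab2 was the 1 member called of 21 tested, against 0.284% of all genes. The list median was 0.0015, and the RNase H1 gene Rnaseh1 had a log2 fold change of -0.27 (adjusted p = 0.843).

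**Figure D3:**
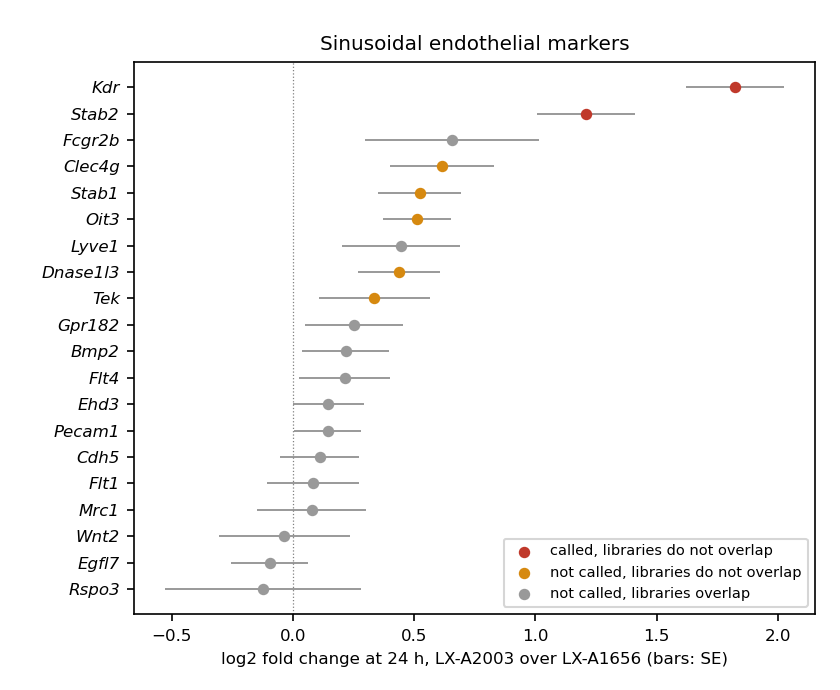
Log2 fold change at 24 h of LX-A2003 over LX-A1656 (bars, SE) for the 20 sinusoidal endothelial markers, ordered by size. Kdr and Stab2 (red) were called, another 5 had separate libraries without passing the test (orange), and 17 of 20 points lie right of 0.

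Several of the other genes called higher span long stretches of the genome, and for most the LX-A2003 level lay between LX-A1656 and PBS. Fbxl17, an F-box adaptor of ubiquitin ligases (chr17:63057452-63500017), had 36.4, 31.7, 23.4 and 22.1 CPM in LX-A2003 livers, 9.91, 10.6, 10.3 and 11.7 CPM in LX-A1656 livers, and 44.5, 46.5, 45.3 and 57.5 CPM in PBS livers. It was separate between all 3 groups, with a log2 fold change of 1.41 ± 0.210 (adjusted p = 0.000115, edgeR) that was called in all 16 alternatives. Sdc2, which encodes the heparan sulfate proteoglycan syndecan 2, had 87.0, 148, 74.4 and 60.7 CPM with LX-A2003, 40.9, 49.6, 44.2 and 41.4 CPM with LX-A1656, and 239.8 ± 16.2 CPM with PBS (SD). LX-A2003 replicate 2 was the highest of its group, the groups did not overlap, and the log2 fold change was 1.07 ± 0.162 (adjusted p = 0.000124). In the fit on the 8 libraries alone the call was lost (adjusted p = 0.0978). Sox5, a transcription factor gene of 953.6 kb (chr6:143828425-144781977), had 9.36, 15.6, 7.14 and 8.57 CPM with LX-A2003, 2.45, 2.81, 5.17 and 3.22 CPM with LX-A1656, and 22.4 ± 4.79 CPM with PBS. Its log2 fold change was 1.57 ± 0.303 (adjusted p = 0.00566), and the call was lost without LX-A2003 replicate 2 or without LX-A1656 replicate 1 or 2, with an adjusted p of up to 0.0893. Chn2, encoding the Rac-regulating protein chimerin 2, averaged 101 ± 21.0 CPM with LX-A2003, 57.8 ± 6.50 CPM with LX-A1656 and 100.4 ± 15.4 CPM with PBS. Its libraries were separate between the oligonucleotides and overlapped between LX-A2003 and PBS, with a log2 fold change of 0.80 ± 0.152 (adjusted p = 0.00490). That call was lost without LX-A2003 replicate 2 or LX-A1656 replicate 2 (adjusted p of up to 0.0893).

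Genomic span was available from GENCODE M21 for 95.8% of the genes tested. The genes called higher that had a span (20 of 21) had a median span of 158.6 kb, and 12 of the 20 (60%) reached 100 kb. Genes called lower had a median span of 9.37 kb and 0 of 15 reached 100 kb. The 12 became 7 without LX-A2003 replicate 1, 4 without LX-A2003 replicate 2 or LX-A1656 replicate 2 and 5 without LX-A1656 replicate 1, along with the number of calls. With DESeq2 they became 26 of 48 genes called higher, and on the 8 libraries alone 43 of 92. In those fits 0 of 29 and 2 of 62 genes called lower reached 100 kb. Over all genes tested the median span was 24.3 kb and 13.0% reached 100 kb. By class, the log2 fold change had a median of -0.035 for the 2891 genes under 10 kb, -0.020 for 4066 genes of 10 to 30 kb, 0.0073 for 3603 genes of 30 to 100 kb, 0.092 for 1308 genes of 100 to 300 kb and 0.25 for 273 genes over 300 kb. With no filter on low counts, the median over 300 kb minus that of all genes was 0.12 in place of 0.25. The class over 300 kb held 3 genes called higher and 0 called lower, 1.10% against the 0.284% of all genes. In it 74.0% of genes had a positive log2 fold change, and the 4 LX-A2003 libraries lay above the 4 LX-A1656 libraries for 17.9% of its genes, against 4.81% of all genes tested. Set against the PBS mean, the median log2 level of these long genes was -0.22, -0.19, -0.26 and -0.29 in the LX-A2003 libraries and -0.49, -0.46, -0.47 and -0.45 in the LX-A1656 libraries. The libraries of the 2 groups did not overlap in this median. In other livers of the same pair the class median was 0.60 at 72 h and 0.34 at 168 h, against -0.028 and 0.013 over all genes. Longer genes falling after these gapmers was known from earlier results of these data when the classes were chosen, so the order of the classes is a description.

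**Figure D4:**
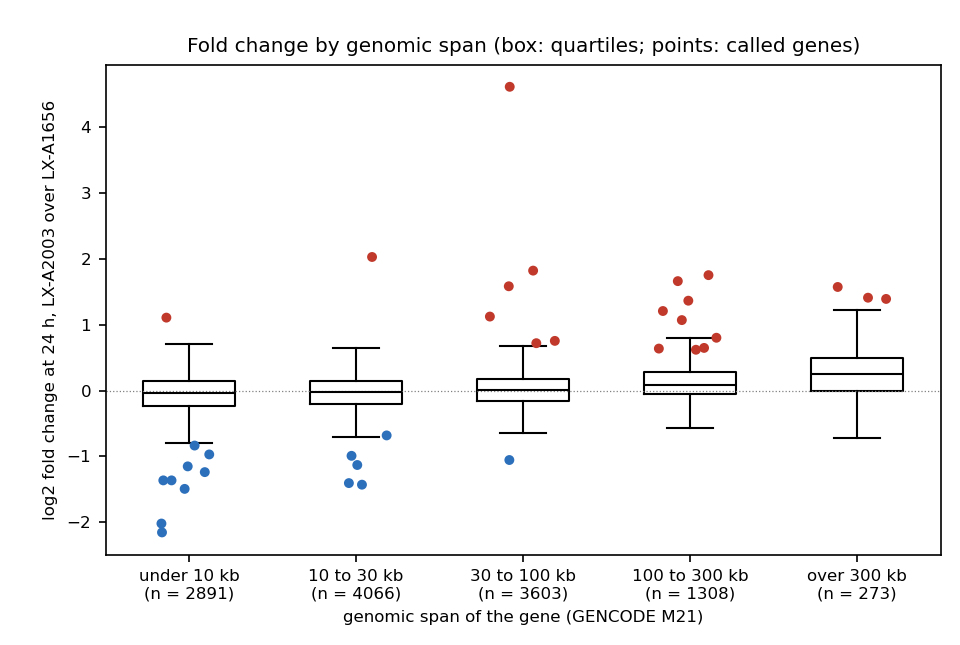
Log2 fold change at 24 h of LX-A2003 over LX-A1656 by genomic span. Boxes give the median and quartiles of all genes tested in the class, whiskers reach the last gene within 1.5 box heights, and points are the called genes. The class median is -0.035 under 10 kb and 0.25 over 300 kb.

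Members of the growth hormone axis were called, in both directions. Growth hormone acts on hepatocytes through JAK2 and STAT5, which induce Socs2 and repress Bcl6; the male liver enzyme Cyp7b1 depends on its pulses in rodents. Of 17 members tested, Cyp7b1 and Socs2 were higher with LX-A2003 and Bcl6 was lower, against 0.284% of all genes called in either direction, and the median of the list was 0.15. Bcl6 (chr16:23965052-23988852, minus strand) had 56.9, 47.6, 54.4 and 75.0 CPM in LX-A2003 livers, 188, 179.8, 121 and 131 CPM in LX-A1656 livers, and 102, 117, 142 and 154 CPM in PBS livers. LX-A2003 libraries were below all others, and those of LX-A1656 overlapped PBS. The log2 fold change was -1.41 ± 0.324 (adjusted p = 0.0355, edgeR), and the call was lost in 5 of the 8 fits without 1 library (LX-A2003 replicates 1, 2 or 3 and LX-A1656 replicates 1 or 2), with an adjusted p of up to 0.181, and with no filter on low counts (0.122). Against PBS the log2 fold change of Bcl6 was -1.14 (adjusted p = 0.0482, and 0.0545 with library totals alone) for LX-A2003 and 0.27 (adjusted p = 0.861) for LX-A1656. Socs2 counts were low: 11.0, 6.20, 1.63 and 3.28 CPM with LX-A2003 (220 reads in all), 0.386, 0.122, 0.398 and 0 CPM with LX-A1656 (7 reads), and 0.718, 0.564, 1.23 and 0 CPM with PBS (24 reads). LX-A2003 libraries lay above all others, replicates 1 and 2 most, and the log2 fold change was 4.62 ± 0.966 (adjusted p = 0.0164), resting on these few reads. The Socs2 call was lost without LX-A2003 replicate 1 or 2 or LX-A1656 replicate 1, 2 or 4 (adjusted p of up to 0.110), and with no filter on low counts (0.0531). The growth hormone receptor gene Ghr averaged 624 ± 99.5 CPM with LX-A2003 and 455 ± 36.8 CPM with LX-A1656, separate but not called (log2 fold change 0.45, adjusted p = 0.598; 0.0267 on the 16 libraries of 24 h). Igf1 had a log2 fold change of -0.25 (adjusted p = 0.89).

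Cyp7b1 encodes an oxysterol hydroxylase of the alternative pathway of bile acid synthesis. It had 714, 627, 267 and 264 CPM in LX-A2003 livers, 168, 140.0, 201 and 218 CPM in LX-A1656 livers, and 509, 472, 498 and 487 CPM in PBS livers. The oligonucleotide groups did not overlap, but LX-A2003 replicates 1 and 2 lay above PBS and replicates 3 and 4 below it. Between the oligonucleotides it was 1.37 ± 0.274 on the log2 scale (adjusted p = 0.00956, edgeR). It lost its call without LX-A2003 replicate 1 (1.09, adjusted p = 0.119) or 2 (1.19, 0.0893), without LX-A1656 replicate 1 (1.33, 0.0589) or 2 (1.26, 0.0780), in the fit on the 8 libraries alone (1.36, 0.177) and in that on the 16 libraries of 24 h (1.36, 0.0606). On the bile acid list, Cyp7b1 was the 1 member called of 17 tested, against 0.284% of all genes. The list median was -0.11. Cyp7a1, the rate-limiting enzyme of the classic pathway, averaged 60.1 ± 43.2 CPM with LX-A2003 and 111 ± 39.9 CPM with LX-A1656 (log2 fold change -0.89, adjusted p = 0.713). Abcc2, the canalicular export pump of conjugated anions, averaged 179 ± 30.5 CPM with LX-A2003 and 214 ± 26.7 CPM with LX-A1656, with overlapping libraries (-0.25 ± 0.173, adjusted p = 0.763). The mitochondrial carrier gene Slc25a30 split as Cyp7b1 did, with 546, 391, 89.4 and 111 CPM in LX-A2003 livers against 64.8, 40.4, 102 and 71.3 CPM in LX-A1656 livers. These groups overlapped, and the call (log2 fold change 2.03 ± 0.391, adjusted p = 0.00648) was lost without LX-A2003 replicate 1 or 2 or LX-A1656 replicate 1 or 2 (adjusted p of up to 0.112), on the 8 libraries alone (0.237) and on the 16 of 24 h (0.0703).

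The RefSeq promoter window of each gene, 250 bases before to 50 after a listed start on GRCm38.p6, was searched on both strands for the STAT recognition letters TTCNNNGAA and for the core of the heat shock element, GAANNTTC. Windows were found for 24 of the 34 genes named by rule, called or not. Socs2 and Cyp7b1 had no window and were not searched. Of the 24, 1 gene held the STAT letters (Bcl6). The heat shock core was held by 5: Hspa1b, Hsph1 and Utp18, lower with LX-A2003, and F8 and Chn2, higher with it. Of all 27025 genes with a window, 9.55% held the STAT letters in at least 1 window and 9.04% the heat shock core; of the 32851 windows, 8.30% and 7.86% did. The windows below are those of Bcl6, Hspa1b and Hsph1, shown because Bcl6 is a known STAT5 target and the other two are the heat shock genes that were called. All read 5′ to 3′ on the minus strand with the matches in capitals. They are chr16:23988803-23989102 and, at a start inside the gene, chr16:23981234-23981533 for Bcl6, then chr17:34959189-34959488 for Hspa1b and chr5:149636287-149636586 for Hsph1.
Bcl6, outer start: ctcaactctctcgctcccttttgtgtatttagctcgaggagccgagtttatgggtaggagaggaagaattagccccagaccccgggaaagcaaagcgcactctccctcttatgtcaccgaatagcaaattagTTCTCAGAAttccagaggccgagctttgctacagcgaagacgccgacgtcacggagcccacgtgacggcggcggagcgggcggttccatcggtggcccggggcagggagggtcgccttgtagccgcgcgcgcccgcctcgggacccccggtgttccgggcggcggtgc
Bcl6, inner start: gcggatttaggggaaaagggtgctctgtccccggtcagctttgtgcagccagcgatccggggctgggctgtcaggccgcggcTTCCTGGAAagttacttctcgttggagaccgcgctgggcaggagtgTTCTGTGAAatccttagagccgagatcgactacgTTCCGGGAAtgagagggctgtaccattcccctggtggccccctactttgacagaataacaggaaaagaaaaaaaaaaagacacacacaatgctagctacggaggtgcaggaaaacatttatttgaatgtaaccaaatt
Hspa1b: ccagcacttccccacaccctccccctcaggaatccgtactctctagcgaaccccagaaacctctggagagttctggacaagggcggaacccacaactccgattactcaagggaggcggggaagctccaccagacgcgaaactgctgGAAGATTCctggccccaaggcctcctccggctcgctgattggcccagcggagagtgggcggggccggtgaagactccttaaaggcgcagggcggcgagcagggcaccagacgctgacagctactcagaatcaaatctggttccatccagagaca
Hsph1: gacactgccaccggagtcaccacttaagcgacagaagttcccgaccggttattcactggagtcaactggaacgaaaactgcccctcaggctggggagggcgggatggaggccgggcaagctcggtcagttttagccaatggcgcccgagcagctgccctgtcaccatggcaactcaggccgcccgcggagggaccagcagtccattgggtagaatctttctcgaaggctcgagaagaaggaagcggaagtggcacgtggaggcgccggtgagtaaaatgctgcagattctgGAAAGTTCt
The inner Bcl6 window held 3 matches and each of the others 1. The Hspa1b match began 104 bases before its listed start, and the Hsph1 match 41 bases after its own. A further Hsph1 window, chr5:149636266-149636565, is not printed. It overlaps the printed one and holds the same match, 20 bases after its start. A match is a stretch of letters and was not tested as a binding site.

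The chaperone genes Hsph1, Hspa1b and Dnajb9 were among those lower with LX-A2003. Hsph1, encoding the nucleotide exchange factor HSP105 of the HSP70 chaperones, had 62.0, 114, 62.4 and 99.9 CPM in LX-A2003 livers, 190.2, 177, 123 and 249.7 CPM in LX-A1656 livers, and 215 ± 11.8 CPM in PBS livers. LX-A2003 libraries were below all others, with a log2 fold change of -1.13 ± 0.250 (adjusted p = 0.0276, edgeR). Its call was lost without LX-A2003 replicate 1 or 3 and without LX-A1656 replicate 1, 2 or 4 (adjusted p of up to 0.177, edgeR). It was also lost in the fit on the 8 libraries alone (0.114) and with no filter on low counts (0.0650). Hspa1b, an inducible HSP70 gene, had 5.48, 6.51, 5.96 and 6.24 CPM with LX-A2003, 15.5, 7.21, 26.8 and 18.8 CPM with LX-A1656, and 10.3, 17.6, 9.14 and 4.20 CPM with PBS. PBS livers overlapped both groups. Its log2 fold change of -1.49 ± 0.354 (adjusted p = 0.0435) was called in 5 of 16 alternatives, and without 1 library the call held only when LX-A1656 replicate 2 was the one left out (adjusted p elsewhere of up to 0.250). Hspa1a, a near-identical copy whose reads the counting could share with Hspa1b, had a log2 fold change of -0.52 (adjusted p = 0.92), so the Hspa1b value is uncertain. Hsp90ab1, the constitutive cytosolic HSP90 gene, had 1724, 1996, 1845 and 2031 CPM with LX-A2003 and 2377, 2399, 2254 and 2551 CPM with LX-A1656. These libraries were separate, and the gene was not called (log2 fold change -0.34 ± 0.142, adjusted p = 0.443; 0.0464 on the 16 libraries of 24 h).

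Of 19 endoplasmic reticulum chaperone genes tested, 1 was called lower, Dnajb9, and 0 higher, against 0.118% and 0.166% of all genes. Of the 19, 14 had negative log2 fold changes and the list median was -0.13. An unadjusted p under 0.05 (edgeR) was reached by 6 that were lower and 1 that was higher, against 8.85% of all genes. Dnajb9, an HSP70 co-chaperone of the endoplasmic reticulum, had 136, 172, 129.9 and 189 CPM with LX-A2003, 323, 277, 185 and 334 CPM with LX-A1656, and 347 ± 73.5 CPM with PBS. LX-A2003 replicate 4 and LX-A1656 replicate 3 overlapped. Its log2 fold change was -0.84 ± 0.199 (adjusted p = 0.0441) and the call was lost in 6 of the 8 fits without 1 library (all but those without LX-A2003 replicate 4 or LX-A1656 replicate 3; adjusted p of up to 0.228) and with the replicate block (0.0705). The chaperone genes Creld2 and Hyou1 had log2 fold changes of -1.12 (adjusted p = 0.117) and -0.77 (adjusted p = 0.136) and did not pass. With DESeq2 Creld2 passed (adjusted p = 0.0461) and Hyou1 did not (0.0916). On the 8 libraries alone Hyou1 passed (adjusted p = 0.0479, edgeR) and Creld2 did not (0.273). On the 16 libraries of 24 h Hyou1 passed (adjusted p = 0.0298, edgeR). Hspa5, the main HSP70 of the compartment, averaged 1321 ± 264 CPM with LX-A2003 and 1869 ± 479 CPM with LX-A1656 (log2 fold change -0.50, adjusted p = 0.492).

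Tat, tyrosine aminotransferase, was also lower with LX-A2003. It had 884, 1456, 1557 and 1544 CPM in LX-A2003 livers, 4135, 2784, 2824 and 3102 CPM in LX-A1656 livers, and 2611 ± 475 CPM in PBS livers. LX-A2003 libraries were below all others and LX-A1656 libraries overlapped PBS. The log2 fold change was -1.24 ± 0.236 (adjusted p = 0.00508, edgeR), and the call was lost without LX-A2003 replicate 1 (adjusted p = 0.0708) or without LX-A1656 replicate 1 (0.0584). On the list of glucose and amino acid metabolism, Tat was the 1 member called of 23 tested, against 0.284% of all genes. The list median was -0.088. The gluconeogenic gene G6pc had 355, 370.0, 378 and 333 CPM with LX-A2003 and 951, 513, 731 and 845 CPM with LX-A1656. These were separate but not called (log2 fold change -1.08 ± 0.335, adjusted p = 0.179). G6pc passed on the 8 libraries alone (adjusted p = 0.00252, edgeR) and on the 16 of 24 h (0.0119), not with DESeq2 (0.0946). Irs2, an adaptor of the insulin receptor, had 32.4, 12.3, 13.6 and 16.7 CPM with LX-A2003 and 28.8, 37.7, 30.3 and 30.0 CPM with LX-A1656. LX-A2003 replicate 1 lay among the LX-A1656 libraries, and the gene was not called (-0.76 ± 0.267, adjusted p = 0.273). Pck1 averaged 906 ± 582 CPM with LX-A2003 and 1829 ± 795 CPM with LX-A1656 (log2 fold change -1.01, adjusted p = 0.556). The summed level of the periportal hepatocyte markers, a list that holds Pck1, was 9618 to 10872 CPM with LX-A2003, 11612 to 12845 CPM with LX-A1656 and 11748 to 13885 CPM with PBS; 0 of its 9 members tested were called, and its part in the result for Tat was not tested.

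Ddit4, a stress-induced inhibitor of mTORC1, had 8.37, 9.46, 10.3 and 10.0 CPM with LX-A2003, 23.0, 20.9, 15.5 and 15.5 CPM with LX-A1656, and 16.9 ± 1.95 CPM with PBS. LX-A2003 libraries were below all others, and the log2 fold change was -0.97 ± 0.229 (adjusted p = 0.0428, edgeR). It was the 1 member called of 19 integrated stress response genes tested (median 0.024), against 0.284% of all genes. Chac1, a glutathione-degrading enzyme gene on that list, went the other way, at 15.1, 5.90, 6.41 and 7.09 CPM with LX-A2003 against 3.61, 2.08, 4.78 and 2.18 CPM with LX-A1656. Its libraries were separate, and with a log2 fold change of 1.46 ± 0.354 it lay just outside the threshold (adjusted p = 0.0506). LX-A2003 replicate 1 lay far above its group, and without it the log2 fold change was 1.04 (adjusted p = 0.362, edgeR). With DESeq2 on all libraries Chac1 passed (adjusted p = 0.0127). The hepatokine gene Fgf21, on the same list, had 60.1, 13.5, 7.50 and 7.93 CPM with LX-A2003 and 6.18, 2.93, 11.3 and 9.15 CPM with LX-A1656, so that 1 library carried the higher mean (1.59 ± 0.617, adjusted p = 0.378; 0.38 without LX-A2003 replicate 1). Arl4d, a small GTPase gene, had 6.87, 8.34, 8.22 and 7.19 CPM with LX-A2003, 27.4, 17.8, 19.1 and 14.8 CPM with LX-A1656, and 21.5 ± 3.47 CPM with PBS. LX-A2003 alone stood apart, with a log2 fold change of -1.36 ± 0.257 (adjusted p = 0.00490), and only the fit without LX-A1656 replicate 1 missed the threshold among 16 alternatives (adjusted p = 0.0589). Ppard, the nuclear receptor PPAR-delta, averaged 15.2 ± 0.713 CPM with LX-A2003, 31.6 ± 12.5 CPM with LX-A1656 and 54.8 ± 15.7 CPM with PBS (log2 fold change -1.06 ± 0.246, adjusted p = 0.0378). Rnd1 averaged 11.8 ± 3.15 CPM with LX-A2003, 23.5 ± 4.80 CPM with LX-A1656 and 15.3 ± 3.81 CPM with PBS (-0.99 ± 0.206, adjusted p = 0.0130). Utp18, a ribosome biogenesis factor gene, averaged 13.9 ± 2.50 CPM with LX-A2003, 22.4 ± 3.07 CPM with LX-A1656 and 18.8 ± 2.38 CPM with PBS (-0.68 ± 0.157, adjusted p = 0.0342). All 3 had separate libraries, and their calls were lost in 6 of 8 (Ppard), 4 of 8 (Rnd1) and 6 of 8 (Utp18) fits without 1 library, as was that of Ddit4 in 6 of 8. Ppard also missed the threshold with library totals alone (0.0570) and with the replicate block (0.0568), and Utp18 with no filter on low counts and with thinned counts (0.0678). Fits without LX-A2003 replicate 1 or 2 or LX-A1656 replicate 1 or 2 lost each of these 4 calls, with adjusted p-values of up to 0.323.

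Pim1, a serine/threonine kinase gene induced by cytokine signalling through STAT proteins, was the called gene with the shortest span among those higher, at 5.36 kb. It had 112, 111, 88.7 and 97.2 CPM in LX-A2003 livers, 49.6, 54.7, 43.9 and 41.4 CPM in LX-A1656 livers, and 54.3, 74.9, 61.4 and 84.9 CPM in PBS livers. LX-A2003 libraries lay above all others, LX-A1656 and PBS overlapped by 1 library, and the log2 fold change was 1.11 ± 0.204 (adjusted p = 0.00454, edgeR), called in all 16 alternatives. Neither group differed from PBS by the test (log2 fold change 0.57, adjusted p = 0.15 for LX-A2003, and -0.54, adjusted p = 0.18 for LX-A1656).

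Slc25a30, above, and the remaining 14 called genes fell outside the naming rule and were named after their values were seen. Higher with LX-A2003 were Adam23, Plpp1, Inpp5a, Cd180, Rin2, Slc25a21, Large, Clec16a and Smurf1, with log2 fold changes from 0.62 (Clec16a) to 1.66 (Adam23). Adam23, a cell adhesion gene, had 10.1, 8.75, 5.69 and 8.78 CPM with LX-A2003 and 1.55, 2.44, 3.32 and 3.12 CPM with LX-A1656, and was called in all 16 alternatives (adjusted p = 3.19e-05, edgeR). Slc25a21, a mitochondrial carrier gene of 484.8 kb, averaged 5.04 ± 1.52 CPM with LX-A2003, 1.92 ± 0.313 CPM with LX-A1656 and 16.7 ± 1.74 CPM with PBS. Cd180, a Toll-like receptor relative of B cells and macrophages, averaged 2.19 ± 0.345 CPM with LX-A2003 and 0.714 ± 0.237 CPM with LX-A1656. Lower with LX-A2003 were Tmco6, 4931428F04Rik, Scd2, Pard6a and Fst, all under 15 CPM on average in both groups, with log2 fold changes from -1.15 (Pard6a) to -2.16 (Fst). Fst, encoding the activin antagonist follistatin, had 0.199, 0.407, 0.181 and 2.43 CPM with LX-A2003 and 5.02, 2.08, 3.32 and 3.64 CPM with LX-A1656. LX-A2003 replicate 4 reached into the LX-A1656 range, and the call was lost in 7 of the 8 fits without 1 library. Such losses numbered 7 of 8 for Rin2, Pard6a and 4931428F04Rik, 6 for Slc25a21 and Smurf1, 5 for Large, Clec16a and Scd2, 4 for Cd180, 3 for Inpp5a and 1 each for Plpp1 and Tmco6. For 13 of the 36 called genes an exon overlaps a gene on the opposite strand, among them Bcl6, Pim1, Stab2, Sox5, Chn2 and Dnajb9. The share of such overlaps among all genes tested was not counted. The sources used here do not say whether counting used strand, or whether an amplicon lies in an overlap. Where one does, reads of the partners cannot be told apart.

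Of 503 genes tested on any of the 37 lists, 8 were called, 4 in each direction, against 0.284% of all genes tested, and 28 of the 36 called genes are on no list. At that share an empty list says little about its pathway. None was called among 23 cholesterol and HDL transport genes (median 0.017), 20 sterol synthesis genes (median -0.17, 17 negative), 22 interferon response genes (median -0.019), 14 inflammatory cytokine genes (median -0.040) or 24 p53 targets (median 0.010). For these lists the quasi-likelihood test had an unadjusted p under 0.05 for 0, 6, 2, 3 and 2 members in that order, against 8.85% of all genes. All 6 sterol synthesis members were lower with LX-A2003, and 2 of the 20 had LX-A2003 libraries all below (3.36% of all genes). Of the others, 2 interferon members were lower, 1 inflammatory member was higher and 2 lower, and p53 targets had 1 each way. Among 20 acute phase genes, 16 were positive and 0 called. An unadjusted p under 0.05 (edgeR) was reached by 6 of them, all higher, against 8.85% of all genes. For 3 the LX-A2003 libraries all lay above (4.81% of all genes tested) and for 1 all below (3.36%). Saa2 had 20.9, 107, 4.88 and 6.66 CPM with LX-A2003 and 7.17 ± 2.84 CPM with LX-A1656, with 1 LX-A2003 library far above the rest (adjusted p = 0.136). Of 15 iron regulation and BMP signalling genes tested, 0 were called. Among these, 7 had an unadjusted p under 0.05 (edgeR), 5 higher and 2 lower. The hepcidin gene Hamp, on that list, averaged 1258 CPM with LX-A2003, 762 CPM with LX-A1656 and 4446 CPM with PBS, and the pair did not pass (log2 fold change 0.72, adjusted p = 0.41). Neutrophil markers had the highest list median among lists with more than 5 members tested: the 7 tested were all positive (median 1.09) and 0 called, and their summed level was 8.76 to 12.3 CPM with LX-A2003, 3.43 to 6.50 CPM with LX-A1656 and 4.97 to 7.36 CPM with PBS. For 3 of the 7 the LX-A2003 libraries all lay above, which held for 4.81% of all genes tested. An unadjusted p under 0.05 (edgeR) was reached by 3 of the 7, against 8.85% of all genes. The granule genes Mpo and Elane, also on the list, were at 0 in the 24 h libraries of these groups. What part neutrophils had in other results was not tested. Hepatocyte markers summed to 59781 to 69598 CPM with LX-A2003, 64475 to 71392 CPM with LX-A1656 and 58120 to 69389 CPM with PBS, which overlap. Hnf4a, the nuclear receptor that maintains hepatocyte identity, had 537, 669.7, 632 and 682 CPM with LX-A2003 and 866, 804, 815 and 823 CPM with LX-A1656. These were separate and not called (log2 fold change -0.39 ± 0.148, adjusted p = 0.359). Hnf4a passed on the 8 libraries alone (adjusted p = 0.0480, edgeR) and on the 16 of 24 h (0.0283), not with DESeq2 (0.288). The transthyretin gene Ttr averaged 5326 ± 1100.5 CPM with LX-A2003 and 7585 ± 1557 CPM with LX-A1656, with overlapping libraries (-0.51 ± 0.265, adjusted p = 0.599).

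The same pair of oligonucleotides differed far more widely at the later times, in other livers. At 72 h 4554 genes were called (35.9%) and at 168 h 4071 (32.1%). Of the 21 genes higher with LX-A2003 at 24 h, 15 were called higher and 2 lower at 72 h, where 18.0% of all genes were called in each direction. That even split rests on the TMM scaling. With library totals alone the median of all genes at 72 h shifted by -0.23 on the log2 scale, 1421 genes were called higher and 3650 lower, and of the 21 genes 12 were called higher and 2 lower. At 168 h 9 were called higher and 4 lower (18.3% and 13.8% of all genes). Scaling by library totals left 6 of these called higher and 4 lower. Of the 15 genes lower at 24 h, 6 were called lower and 2 higher at 72 h, and 5 lower and 2 higher at 168 h. Kdr averaged 11.3 ± 1.29 CPM with LX-A2003 and 3.18 ± 0.302 CPM with LX-A1656 at 72 h, and 15.3 ± 2.06 CPM with LX-A2003 and 8.21 ± 2.62 CPM with LX-A1656 at 168 h. It was called higher at all 3 times, with log2 fold changes of 1.83 at 72 h and 0.89 at 168 h. Pim1 was higher with LX-A2003 at 72 h (0.84, adjusted p = 0.000992, edgeR) and lower at 168 h (-0.81, adjusted p = 0.00173). Ddit4 was lower at each time, with log2 fold changes of -1.09 at 72 h and -2.32 at 168 h. Hsph1 and Hspa1b, lower at 24 h, were higher at 168 h (1.30 and 1.78).

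**Figure D5:**
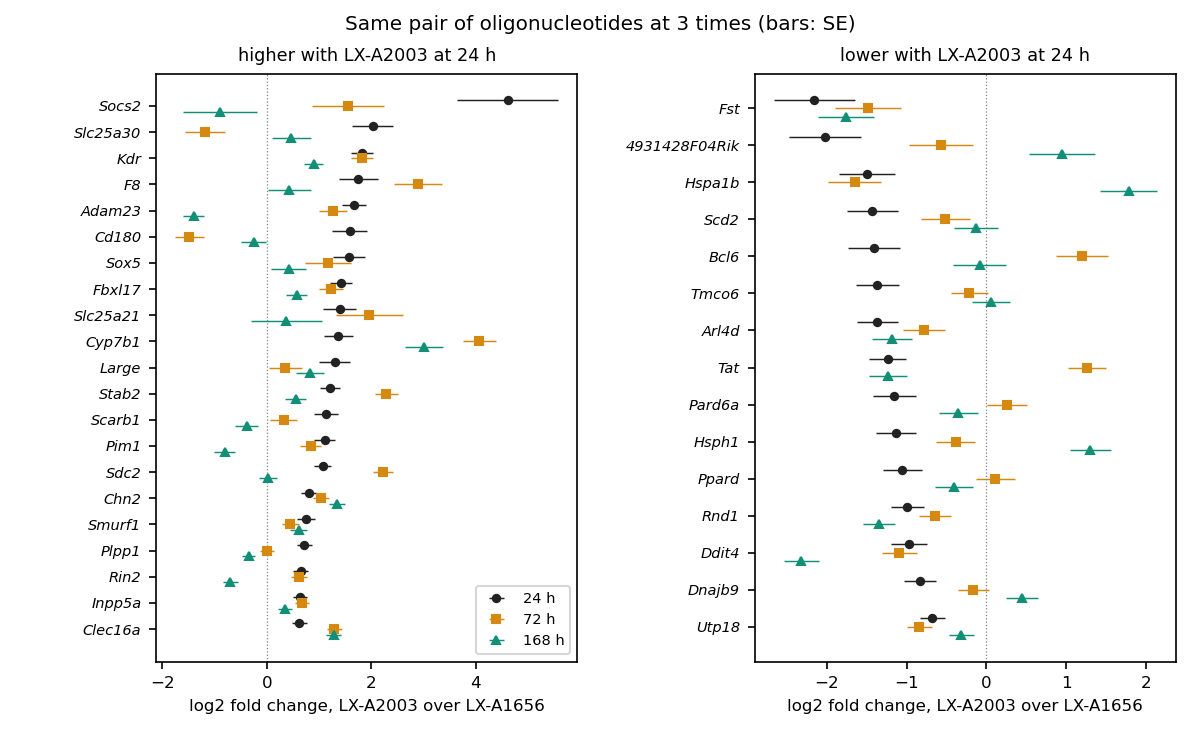
Log2 fold change of LX-A2003 over LX-A1656 (bars, SE) at 24 h, 72 h and 168 h for the 21 genes called higher (left) and the 15 called lower (right) at 24 h. Kdr stays right of 0 at each time, whereas Bcl6 and Tat lie left of 0 at 24 h and right of it at 72 h.

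Whether the pair difference changed between 24 h and 72 h was tested as an interaction, which called 2446 of all genes (19.3%; 10.4% positive and 8.95% negative) and 12 of the 36 (9 positive and 3 negative). The 36 were chosen on the same 24 h difference that the interaction subtracts. For them it therefore leans away from the 24 h sign, and 12 of 36 is not comparable with 19.3%. With library totals alone the median of all genes shifted by -0.21, the balance turned (789 positive and 1742 negative calls), and the interactions of Stab2, Ppard, Clec16a and Tmco6 missed the threshold (adjusted p = 0.0516 to 0.124, edgeR). Cyp7b1 averaged 272 ± 61.4 CPM with LX-A2003 and 16.2 ± 6.95 CPM with LX-A1656 at 72 h, so its log2 fold change grew to 4.07, a difference of 2.70 ± 0.393 from 24 h (adjusted p = 1.45e-06, edgeR). At 168 h it averaged 9.42 ± 2.49 CPM with LX-A2003 and 1.16 ± 0.511 CPM with LX-A1656. Stab2 and Sdc2 also had larger differences at 72 h, with log2 fold changes of 2.29 and 2.23 and interactions of 1.08 ± 0.299 (adjusted p = 0.00706) and 1.15 ± 0.252 (adjusted p = 0.000658). Bcl6 turned round: it averaged 75.2 ± 20.7 CPM with LX-A2003 and 32.8 ± 6.73 CPM with LX-A1656 at 72 h, a log2 fold change of 1.20 and an interaction of 2.60 ± 0.459 (adjusted p = 4.00e-05). Tat likewise averaged 2716 ± 614 CPM with LX-A2003 and 1132 ± 398 CPM with LX-A1656 at 72 h (log2 fold change 1.26, interaction 2.50 ± 0.334, adjusted p = 2.66e-07). At 168 h Tat was lower again with LX-A2003, 2047 ± 584 CPM against 4801 ± 717 CPM with LX-A1656 (log2 fold change -1.23, adjusted p = 6.55e-05). For Kdr the interaction was 0.0050 ± 0.216 and did not pass (adjusted p = 0.996).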

How the data were processed

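Per the labels' protocols, liver was bead-homogenised in TriPure for total RNA, and an Ion AmpliSeq transcriptome kit for mouse amplified 1 designed fragment per gene by PCR. The authors deposited raw read counts per gene target, whole numbers with no normalisation; the aligner, genome build, strand and filters are not stated in the labels. Library names in the labels gave the group of each column.

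Of 23930 genes, 12672 passed filterByExpr on the 12 groups. Counts of all 48 libraries were fitted with 12 group means (edgeR 4.0.16 robust quasi-likelihood, limma 3.58.1, R 4.3.3, TMM factors, 36 residual degrees of freedom); DESeq2 1.42.0 was an alternative. The fit was tested on simulated data. The SE is the absolute log2 fold change over the square root of F. Chi-square tests of counts separated every pair of replicates, so none was counted as a copy. The chi-square per degree of freedom was 5.79 between LX-A2003 replicates 3 and 4. Between either of these and LX-A2003 replicate 1 or 2 it was 18.2 to 23.5, and to LX-A1656 libraries 11.0 to 17.7. By this measure both were nearer to each LX-A1656 library than to LX-A2003 replicates 1 and 2. LX-A2003 replicates 1 and 2 were at 15.4 from each other and 16.1 to 34.8 from LX-A1656 libraries. The measure rises with read depth and was not adjusted for it. Each LX-A1656 library was shallower than each LX-A2003 library, which lowers values between the groups. Whether the nearness holds at equal depth was not tested. Of the table's genes, 21370 matched GENCODE M21 by symbol. Genes were named by rule: Scarb1; the 10 largest increases and 10 largest decreases among called genes with at least 10 CPM on average in 1 group and separate libraries (9 lower genes qualified); and the 3 tested members with the smallest p of each list with a called gene, whether called or not (34 genes in all). Other genes were named after their values were seen. Comparison, lists and rule were chosen with earlier results of these data known.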

Additional observations from a re-analysis of the deposited data

Results flagged for a closer look

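Of 98 groups of 4 libraries examined for a sample far from the others (49 genes, called or named by rule, in both groups), 6 held one, and chance gives about 1 in 20. Tat had 884 CPM in LX-A2003 replicate 1, against 1456 to 1557 CPM in the other LX-A2003 libraries. Chac1 had 15.1 CPM in the same library, against 5.90 to 7.09 CPM in the others, and Fgf21 had 60.1 CPM there, against 7.50 to 13.5 CPM. Irs2 had 37.7 CPM in LX-A1656 replicate 2, against 28.8 to 30.3 CPM in the other LX-A1656 libraries. Clec16a, a gene of autophagy regulation, had 77.8 CPM in LX-A2003 replicate 2, against 58.1 to 61.0 CPM in the others. Fst had 2.43 CPM in LX-A2003 replicate 4, against 0.181 to 0.407 CPM in the others.

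The pair difference at 72 h minus that at 24 h passed the edgeR test for 18 of these 49 genes, 12 of them among the 36 called. The 36 were chosen on the 24 h difference that is subtracted, so for them the result leans away from the 24 h sign. It was positive for Cyp7b1 (2.70), Stab2 (1.08), Sdc2 (1.15) and Clec16a (0.67), whose differences were larger at 72 h. It was also positive for Bcl6 (2.60) and Tat (2.50), which were higher with LX-A2003 at 72 h, and for Ppard (1.17), Pard6a (1.41) and Tmco6 (1.15), which were not called at 72 h. It was negative for Cd180 (-3.07) and Slc25a30 (-3.21), both lower with LX-A2003 at 72 h, and for Plpp1 (-0.72), not called at 72 h. Among genes not called at 24 h it was positive for Abcc2 (0.71), Creld2 (1.43), Hyou1 (1.63), G6pc (3.66), Hnf4a (1.01) and Ttr (1.63). With library totals alone Stab2, Clec16a, Ppard, Tmco6 and Abcc2 missed the threshold for this difference.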

How the results depend on the processing

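The 36 called genes kept their sign in each of 16 alternative fits. Kdr, Fbxl17, Stab2, Pim1 and Adam23 passed in all 16, and Sdc2, Arl4d, Plpp1 and Tmco6 in 15. The number called, 36, was 37 with RLE factors, 32 with library totals alone (53.1% higher), 33 with the replicate block, 31 with thinned counts, 77 with DESeq2, 22 with no filter on low counts, 154 on the 8 libraries alone and 267 on the 16 libraries of 24 h; thinning and the last were chosen after seeing the data, and the cause of the differences between fits was not tested. Leaving out 1 library gave 11 to 39. Called list members, 8, became 15 with DESeq2, 19 on the 8 libraries, 31 on the 16 and 2 to 11 without 1 library. The long-gene median minus that of all genes, 0.25, was 0.12 with no filter and 0.23 to 0.27 without 1 library. On the compared libraries alone 754 genes differed between LX-A2003 and PBS (main 265) and 803 between LX-A1656 and PBS (main 363). Without 1 library these counts were 135 to 214 and 239 to 314, the pair at 72 h gave 3854 to 4535, at 168 h 3362 to 4596, the interaction 2076 to 2588 and the log2 fold change of Scarb1 0.97 to 1.31. Same-numbered libraries of the pair at 24 h had correlations of deviations from -0.032 to 0.055, so the numbers showed no pairing between these groups. Other groups were not examined for pairing, and the block result is no test of strength. Thinning to the smallest library lost the calls of Hspa1b, Utp18, 4931428F04Rik, Fst, Large and Pard6a. With library totals alone 28.0% of the genes called at 72 h were higher (1421 of 5071; 2278 of 4554 in the reported fit), and 31.2% of interaction calls were positive, against 53.6%.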
